A study of Mus musculus with 6 samples.

Results

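The opioid genes described here are 7 of the 32285 genes counted in 6 libraries of dissociated autonomic ganglia. They were listed by symbol, with earlier results of these data known. They comprise the 3 precursors of opioid peptides, Penk, Pdyn and Pnoc, and the 4 opioid receptors, Oprm1, Oprk1, Oprd1 and Oprl1. The ganglia came from postnatal day 5 pups of both sexes that all carried the same Cre transgene and a Cre-dependent tdTomato reporter. A first round of droplet sequencing (reagents of version 2) covered the stellate ganglion, which is sympathetic, the sphenopalatine ganglion, which is parasympathetic, and the pelvic ganglion (named pelvic_1 here). In a second round (version 3), the sympathetic coeliac ganglion and lumbar chain and again the pelvic ganglion (pelvic_2) were sequenced. No ganglion but the pelvic thus had more than 1 library, and round and ganglion cannot be told apart for the others, so ganglia were compared within a round and without a test.

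Of 30777 droplets, 21442 passed the filters on gene number and mitochondrial RNA, and 7052 were neurons by the mean level of 4 neuronal markers. They comprised 2724 stellate, 1903 sphenopalatine, 893 pelvic_1, 237 coeliac, 930 lumbar and 365 pelvic_2 neurons. The median depth of a neuron ran from 26651 unique molecular identifiers (UMIs, each standing for a captured RNA molecule) in the stellate to 108598 in pelvic_2, and that of a glial cell from 3474.5 in the stellate to 12113 in the coeliac. Summed over 5 noradrenergic markers, the sympathetic neurons held 3362 to 4754 UMIs per 1000000 UMIs of the sum (CPM), against 123 in the sphenopalatine, and 3 cholinergic markers summed to 587 CPM in the sphenopalatine, to 656 and 865 in the pelvic libraries and to at most 49.2 in the sympathetic ones, so the markers matched the labels. The 3 libraries of round 1 shared 20 to 49 cell barcodes per pair, and no other pair shared over 4.

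Opioid peptides are cut out of long precursor proteins in secretory granules and act on receptors coupled to inhibitory G proteins, which lower cyclic AMP, close calcium channels of nerve terminals and open potassium channels. Penk encodes the precursor of the enkephalins, Pdyn that of the dynorphins and Pnoc that of nociceptin. Enkephalins act mainly on the delta and mu receptors (Oprd1 and Oprm1), dynorphins on the kappa receptor (Oprk1), and nociceptin on its own receptor (Oprl1). In autonomic ganglia enkephalin is a classical peptide of preganglionic fibres and of some ganglionic neurons, where opioids damp the release of acetylcholine and noradrenaline.

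What the precursors share, and what sets nociceptin apart, can be read in their coding sequences. An opioid peptide starts with the codons of tyrosine, glycine, glycine and phenylalanine, here called the opioid core, and nociceptin has a codon of phenylalanine in place of the first. Read in frame, the longest coding sequence of Penk (804 bases) held 7 opioid cores, that of Pdyn (744 bases) held 3, and that of Pnoc (636 bases) held 0 opioid cores and 1 nociceptin core. Of 21584 mouse genes searched in this way, 71 (0.329%) held an opioid core, 4 of them 3 or more, and 107 (0.496%) held a nociceptin core. The sequences below show the core in capitals with the 6 bases before it and the 9 after it, 5′ to 3′, from the GENCODE M21 transcripts on GRCm38, all on the minus strand.
Penk copy 1 (chr4:4134328-4134354, exon 2 of 2): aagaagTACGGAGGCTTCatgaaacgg
Penk copy 6 (chr4:4133935-4133961, exon 2 of 2): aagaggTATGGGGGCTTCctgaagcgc
Pdyn copy 1 (chr2:129688232-129688258, exon 4 of 4): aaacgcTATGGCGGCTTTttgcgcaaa
Pdyn copy 2 (chr2:129688124-129688150, exon 4 of 4): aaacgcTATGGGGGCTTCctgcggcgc
Pnoc (chr14:65404872-65404898, exon 3 of 4): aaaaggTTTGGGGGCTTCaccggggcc
In Penk the core was followed by atg, the codon of methionine (Met-enkephalin), in 6 copies and by ctg, a codon of leucine (Leu-enkephalin), in 1, while all 3 cores of Pdyn were followed by a codon of leucine. The 6 bases before each printed core encode a pair of basic residues, of the kind at which prohormone convertases cut. In both enkephalin copies and both Pdyn copies shown, the 6 bases after the fifth codon also encode such a pair. Penk copies 4 and 7, which are not shown, lack it there. The peptides that open with the Pdyn cores and nociceptin run on beyond the residues shown.

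On GRCm38 (GENCODE M21), Penk (ENSMUSG00000045573) lies at chr4:4133531-4138819 on the minus strand, Pdyn (ENSMUSG00000027400) at chr2:129686565-129699844 on the minus strand, and Pnoc (ENSMUSG00000045731) at chr14:65400673-65425472 on the minus strand. Of the receptors, Oprm1 (ENSMUSG00000000766) lies at chr10:6758506-7038198 on the plus strand, Oprk1 (ENSMUSG00000025905) at chr1:5588466-5606131 on the plus strand, Oprd1 (ENSMUSG00000050511) at chr4:132110726-132144486 on the minus strand, and Oprl1 (ENSMUSG00000027584) at chr2:181715016-181720985 on the plus strand. Penk overlaps A830012C17Rik over 499 bases and Oprm1 overlaps Ipcef1 over 152403, in both cases on the opposite strand, and these partners stood at no more than 1.13 CPM in the neurons of any library.

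Penk was by far highest in the parasympathetic ganglion. Its level in neurons was 335 CPM in the sphenopalatine (95% exact Poisson interval 331 to 339, from 25484 UMIs), against 1.47 in the stellate (1.22 to 1.77), and 24.0 in pelvic_1 (22.4 to 25.6) of the same round. In round 2 it was 1.56 CPM in the coeliac (1.03 to 2.25), 0.498 in the lumbar chain (0.348 to 0.689) and 10.5 in pelvic_2 (9.46 to 11.6). The order was thus parasympathetic over pelvic over sympathetic in round 1 and pelvic over sympathetic in round 2, with no overlap of intervals between these kinds of ganglia within a round, and the pelvic ganglion stood at 17.2 ± 9.55 CPM (SD, n = 2). Here and below, intervals cover counting error only, since nothing shows the spread between preparations of the same ganglion other than the pelvic one.

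The sphenopalatine level of Penk was 227 times that of the stellate (exact interval of the ratio 190 to 275) and 14.0 times that of pelvic_1 (13.1 to 15.0). Pelvic neurons in turn held 16.3 times the stellate level in round 1 (13.4 to 19.9) and 21.1 times the lumbar level in round 2 (15.0 to 30.5). Between the sphenopalatine and the stellate, 5.31% of the genes with at least 5 CPM in either differed 4-fold or more, among them 3 of the 4 opioid genes at that level. For pelvic_1 against the stellate these figures were 4.32% and 3 of 4, for the sphenopalatine against pelvic_1 3.46% and 1 of 2, for pelvic_2 against the lumbar chain 4.39% and 2 of 4, for pelvic_2 against the coeliac 4.58% and 1 of 3, and for the coeliac against the lumbar chain 0.719% and 1 of 2. Apart from Penk between the sphenopalatine and pelvic_1, each opioid gene so counted reached 5 CPM in a single ganglion of its pair. Entry by that route favours a large fold, so no conclusion is drawn from these counts. Pnoc, at 4.30 CPM in the stellate and 0.316 in the sphenopalatine, was below the level and left out there.

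At least 1 UMI of Penk was found in 70.7% of sphenopalatine neurons (exact binomial interval 68.6 to 72.7), in 15.1% and 15.6% of pelvic_1 and pelvic_2 neurons, and in 2.90% to 7.59% of sympathetic neurons. With each neuron thinned to 4000 UMIs the share was 32.5% in the sphenopalatine, 3.81% and 2.87% in the pelvic libraries and at most 0.862% in the sympathetic ones, in the same order of the 3 kinds of ganglia. A UMI of Penk was also found in 12.9% of sphenopalatine glial cells (median depth 4679 against 38127 UMIs in neurons) and in at most 0.765% of those of any other library. The sphenopalatine glial level of 33.2 CPM was 9.90% of the neuronal level, and the same percentage for Oprl1 was 9.16 there, so free neuronal RNA cannot be told apart from expression in these glial cells.

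**Figure D1:**
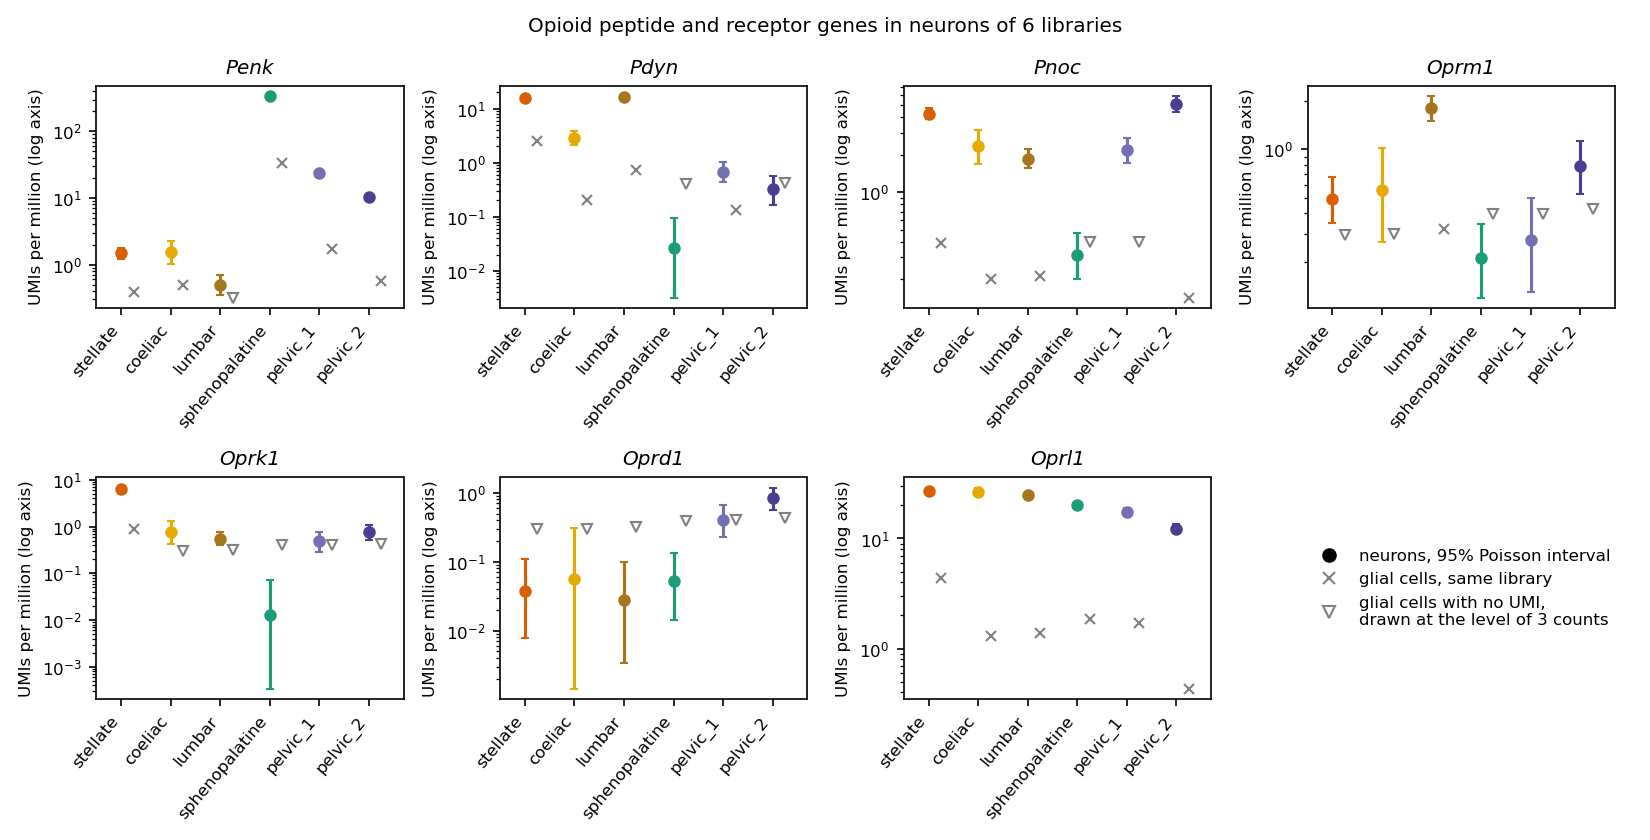
Level of each opioid gene (CPM, log axis) in the neurons of the 6 libraries (coloured circles, with 95% Poisson intervals) and in the glial cells of the same library (grey crosses, or open triangles at the level of 3 counts where no UMI was found). Penk peaks in the sphenopalatine at 335 CPM, Pdyn and Oprk1 are lowest there, Oprd1 is highest in the 2 pelvic libraries, and Oprl1 stays between 12.3 and 27.0 CPM throughout.

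Within the sphenopalatine, Penk was concentrated in a minority of neurons. Clusters were computed without the 7 opioid genes, and the cluster led by Gpr50, H19 and Tac1 (197 neurons, 10.4% of the ganglion) held 62.2% of the Penk UMIs at 2104 CPM, with a Penk UMI in 100% of its neurons. The other 8 clusters lay lower. A cluster led by Pyy, Gria1 and Dbh (394 neurons) held 246 CPM, and one led by Calcb and Adgrg6 (87 neurons) held 232. The lowest cluster, led by Npy and Cited1 (141 neurons), held 14.8 CPM. This was above every sympathetic library but below the 33.2 CPM of sphenopalatine glial cells, and the part of free RNA in it was not tested. Clusters whose leading genes were glial (Fabp7, Apoe, 129 neurons) or of macrophages (Pf4, Fcer1g, 81 neurons) held 412 and 251 CPM, and the part of mixed droplets in these was not tested. In single neurons the highest count was 303 UMIs, 23.4% of neurons held 10 or more, and the top 5% of neurons held 47.9% of all Penk UMIs.

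In the pelvic ganglion the concentration was sharper and fell in the same cluster in both libraries. The cluster led, apart from Penk itself, by Gng8, Pcp4l1 and Thy1 (194 neurons) held 86.0% of the pelvic Penk UMIs, at 125 CPM in pelvic_1 (116 to 134) and 40.9 in pelvic_2 (36.6 to 45.5). The top 5% of neurons held 87.3% of the Penk UMIs in pelvic_1 and 88.6% in pelvic_2, while only 2.58% and 2.19% of neurons held 10 UMIs or more. A single neuron held 187 of the 880 Penk UMIs of pelvic_1, and a single one 110 of the 387 of pelvic_2. The difference between the pelvic libraries, 24.0 against 10.5 CPM, thus came mostly through this cluster, in which the 129 neurons of pelvic_1 and the 65 of pelvic_2 differed in level. In the sympathetic libraries the highest count in a neuron was 4 to 6 UMIs.

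Pdyn, the dynorphin precursor, had the opposite distribution and was a gene of sympathetic neurons. Its level was 15.5 CPM in the stellate (14.6 to 16.4), 0.0263 in the sphenopalatine (2 UMIs) and 0.681 in pelvic_1 (0.441 to 1.01) in round 1. In round 2 it was 16.0 CPM in the lumbar chain (15.1 to 17.0), 2.89 in the coeliac (2.16 to 3.79) and 0.325 in pelvic_2 (0.168 to 0.568). The stellate and the lumbar chain, both paravertebral, stood at like levels, but in different rounds, so this likeness cannot be told apart from an effect of round. Within round 2 the prevertebral coeliac lay between the lumbar chain and pelvic_2. The pelvic ganglion stood at 0.503 ± 0.252 CPM over its libraries (SD, n = 2). The stellate level was 22.7 times that of pelvic_1 (15.3 to 35.2), and the lumbar level was 49.3 times that of pelvic_2 (28.1 to 95.7) and 5.54 times that of the coeliac (4.20 to 7.47).

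A UMI of Pdyn was found in 22.8% of stellate, 14.3% of coeliac and 40.3% of lumbar neurons, in 1.57% and 2.47% of pelvic ones, and in 0.105% of sphenopalatine ones. After thinning the stellate and the lumbar chain stood at 4.85% and 4.61%, so the higher lumbar share went with the greater depth of that library. At most 0.908% of glial cells of a library held a UMI of Pdyn.

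UMIs of Pdyn were found in most sympathetic clusters, though unevenly. In the stellate it reached 58.6 CPM in a cluster led by Vip, Cartpt and Sst (216 neurons, 50.8 to 67.2), of which Vip is a peptide of cholinergic sympathetic neurons, but 35.1% of the UMIs came from the larger cluster led by Ndufa4l2, C1ql1 and Foxp1 (844 neurons), at 25.4 CPM. In the lumbar chain the cluster led by Gng8, Cntn4 and Thy1 (44 neurons) stood highest at 54.3 CPM (48.5 to 60.5) and held 28.1% of the UMIs, with a UMI in 93.2% of its neurons. The top 5% of neurons held 52.1% of the stellate and 39.3% of the lumbar UMIs. In the coeliac the cluster led by C1ql1, Gm14964 and Hmx1 (113 neurons, 47.7% of the ganglion) held 67.3% of the Pdyn UMIs. In the pelvic ganglion 86.5% of the few Pdyn UMIs (32 of 37) fell in the noradrenergic cluster led by Th, Slc6a2 and Dbh, at 4.44 CPM in pelvic_1 and 2.38 in pelvic_2.

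Pnoc, the nociceptin precursor, was low on average in every ganglion. It stood at 4.30 CPM in the stellate (3.85 to 4.78), 0.316 in the sphenopalatine (0.202 to 0.470) and 2.18 in pelvic_1 (1.73 to 2.71), and at 2.34 CPM in the coeliac (1.68 to 3.16), 1.87 in the lumbar chain (1.56 to 2.21) and 5.15 in pelvic_2 (4.44 to 5.93). The sphenopalatine was lowest in its round, with the stellate 13.6 times higher (8.99 to 21.5), and the coeliac and lumbar intervals overlapped. As a mean over neurons of each neuron's CPM, in which shallow neurons weigh as much as deep ones, the coeliac stood at 6.24 and the stellate at 5.13. The pelvic ganglion was below the stellate in round 1 and above the lumbar chain in round 2 (2.76 times, 2.20 to 3.47), with 3.66 ± 2.10 CPM over its libraries (SD, n = 2). A UMI was found in 0.946% to 8.77% of the neurons and in at most 0.255% of the glial cells of a library.

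These averages hid small groups of neurons rich in Pnoc. In the stellate a cluster of 28 neurons (1.03% of the ganglion), led by Adgrg6, Slc5a7 and Ass1 beside Pnoc itself, held 63.6% of the UMIs at 176 CPM (153 to 201), with a UMI in 89.3% of its neurons. These neurons held Slc5a7, which takes up choline into cholinergic terminals, at 343 CPM, together with the noradrenergic genes Th at 619, Dbh at 251 and Slc6a2 at 211 CPM. The stellate Vip, Cartpt and Sst cluster followed at 23.2 CPM (18.4 to 28.9). In the lumbar chain 65.9% of the UMIs lay in a cluster led by Cntn5 and Myl1 (113 neurons, 7.52 CPM), of which 42 UMIs were those of a single neuron, and a cluster led by Cbln2 and Sytl4 (50 neurons) held 9.63 CPM. The coeliac cluster led by Sytl4, Tlx3 and Egln3 (28 neurons) held 25.6 CPM (15.6 to 39.5) and 47.6% of the coeliac UMIs. Sytl4, a leading gene of this cluster and of the lumbar Cbln2 one, was also among the leading genes of chromaffin-like cells. Both clusters were shallow, with medians of 27581.5 and 24362 UMIs against 56713 and 70078 for all coeliac and lumbar neurons. The part of chromaffin-like cells in them was not tested. In the pelvic ganglion 60.4% of the UMIs fell in the cluster led by Fst and Pyy (177 neurons), at 6.27 CPM in pelvic_1 (4.10 to 9.19) and 20.5 in pelvic_2 (17.2 to 24.2), where 41 of its 137 UMIs were those of a single neuron.

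**Figure D2:**
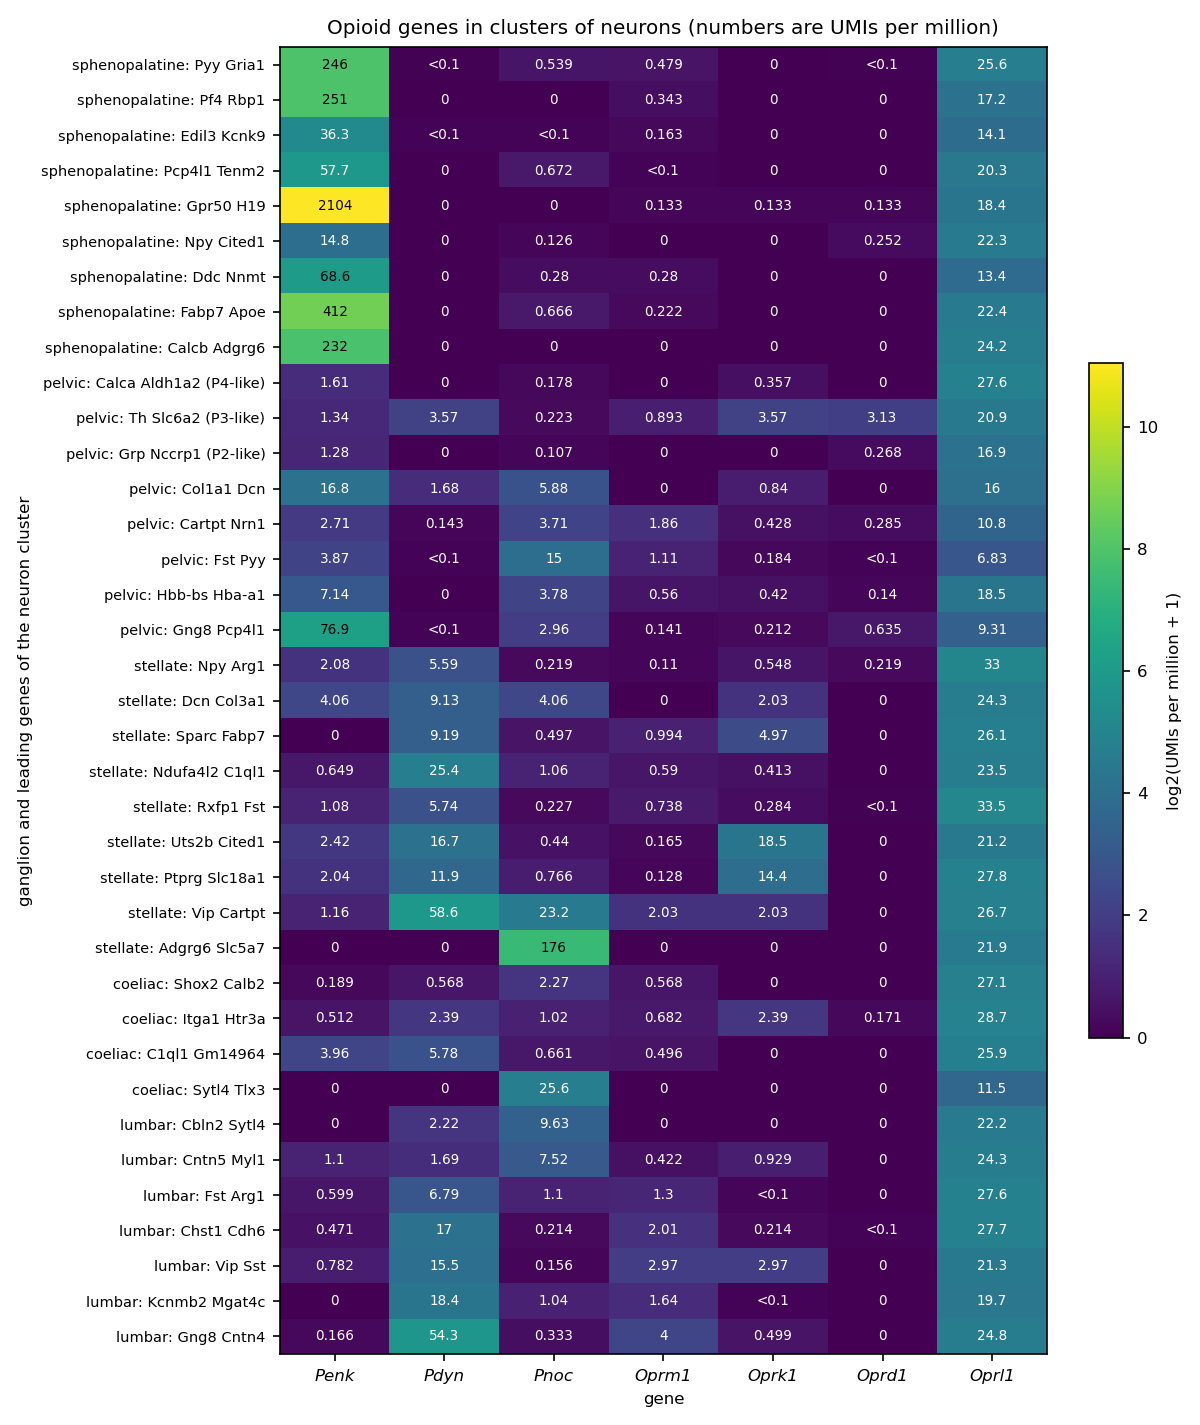
Level of the 7 opioid genes in the clusters of neurons of each ganglion, as numbers (CPM) and as colour (log2 of CPM + 1), with clusters named by their leading genes. Penk reaches 2104 CPM in the sphenopalatine Gpr50 H19 cluster, Pnoc 176 CPM in a stellate cluster of 28 neurons and Oprk1 18.5 CPM in the stellate Uts2b Cited1 cluster, while Oprl1 is within 6.83 to 33.5 CPM in all clusters.

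Among the receptors, Oprl1, the receptor of nociceptin, was found in the neurons of all ganglia at similar levels. It stood at 27.0 CPM in the stellate (25.8 to 28.1), 20.1 in the sphenopalatine (19.1 to 21.2) and 17.4 in pelvic_1 (16.0 to 18.8), and at 26.5 CPM in the coeliac (24.2 to 29.0), 24.8 in the lumbar chain (23.6 to 25.9) and 12.3 in pelvic_2 (11.2 to 13.5). The coeliac and lumbar levels did not differ beyond counting error (ratio 1.07, 0.967 to 1.19). The pelvic ganglion was lowest in each round, with the stellate at 1.55 times pelvic_1 (1.42 to 1.70) and the lumbar chain at 2.01 times pelvic_2 (1.81 to 2.24), and its mean was 14.8 ± 3.58 CPM (SD, n = 2).

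A UMI of Oprl1 was present in 47.0% to 72.8% of neurons, against 0.534% to 1.56% of glial cells, and in 5.16% to 10.8% of neurons after thinning. The top 5% of neurons held 18.5% to 24.5% of its UMIs in the 6 libraries. The stellate cluster led by Rxfp1 and Fst was highest at 33.5 CPM (30.9 to 36.3). In the pelvic ganglion 3 clusters lay below the others in both libraries. These were the Fst and Pyy cluster that was highest in Pnoc (6.75 CPM in pelvic_1 and 6.87 in pelvic_2), the Gng8 cluster that was highest in Penk (12.4 and 7.02) and a cluster led by Cartpt and Nrn1 (13.1 and 9.25).

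Oprk1, the kappa receptor, was within round 1 highest in the stellate. It stood at 6.25 CPM there (5.71 to 6.82), at 0.0132 in the sphenopalatine (1 UMI) and at 0.491 in pelvic_1 (0.291 to 0.775), and at 0.779 CPM in the coeliac (0.426 to 1.31), 0.553 in the lumbar chain (0.395 to 0.753) and 0.758 in pelvic_2 (0.504 to 1.10). The stellate level was 12.7 times that of pelvic_1 (7.97 to 21.7), whereas the 3 libraries of round 2 had overlapping intervals. The pelvic mean was 0.625 ± 0.189 CPM (SD, n = 2). Oprk1 was found in 8.30% of stellate neurons and in 0.0525% to 3.84% of those of the other libraries, against at most 0.327% of glial cells.

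Most of the stellate signal came from a pair of clusters. The one led by Uts2b and Cited1 (385 neurons, 14.1% of the ganglion) held 67.9% of the Oprk1 UMIs at 18.5 CPM (16.6 to 20.6), and 34.8% of its neurons had a UMI. The other, led by Ptprg and Slc18a1 (249 neurons, 9.14%), held 22.8% at 14.4 CPM (11.9 to 17.3). In the coeliac all 14 UMIs lay in the cluster led by Itga1 and Htr3a (44 neurons), at 2.39 CPM. In the lumbar chain 47.5% of the UMIs lay in a cluster led by Vip and Sst (82 neurons, 2.97 CPM, 1.79 to 4.64), which had Slc18a3 but also collagen genes among its leading genes, and in the pelvic ganglion 69.6% of the UMIs fell in the noradrenergic Th, Slc6a2 and Dbh cluster, at 2.12 CPM in pelvic_1 and 5.56 in pelvic_2.

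Oprd1, the delta receptor, was near the limit of detection outside the pelvic ganglion. The stellate, sphenopalatine, coeliac and lumbar libraries held 3, 4, 1 and 2 UMIs (0.0276 to 0.0556 CPM), whereas pelvic_1 held 15 (0.409 CPM, 0.229 to 0.674) and pelvic_2 held 31 (0.840 CPM, 0.570 to 1.19). The pelvic ganglion was 10.8 times above the stellate in round 1 (3.06 to 58.3) and 30.4 times above the lumbar chain in round 2 (7.73 to 262), with a mean of 0.624 ± 0.305 CPM (SD, n = 2). A UMI was found in 1.46% and 6.85% of pelvic_1 and pelvic_2 neurons and in 0 of 8174 glial cells. The noradrenergic pelvic cluster held 60.9% of the UMIs, at 1.35 CPM in pelvic_1 and 5.56 in pelvic_2, where 45.5% of its 33 neurons had a UMI.

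Oprm1, the mu receptor and the main target of morphine, was low in all ganglia and, within round 2, highest in the lumbar chain. It stood at 0.491 CPM in the stellate (0.349 to 0.672), 0.210 in the sphenopalatine (0.120 to 0.342) and 0.273 in pelvic_1 (0.131 to 0.501), and at 0.556 CPM in the coeliac (0.267 to 1.02), 1.80 in the lumbar chain (1.50 to 2.13) and 0.785 in pelvic_2 (0.526 to 1.13). The lumbar level was 3.23 times the coeliac one (1.70 to 6.90) and 2.29 times that of pelvic_2 (1.52 to 3.55), while the intervals of pelvic_1 overlapped those of both other libraries of its round. The pelvic mean was 0.529 ± 0.363 CPM (SD, n = 2). Oprm1 was found in 11.1% of lumbar neurons, against 0.350% of lumbar glial cells and 0 glial cells of the other libraries. Within the lumbar chain the Gng8, Cntn4 and Thy1 cluster, highest there for Pdyn as well, held 4.00 CPM (2.56 to 5.94) and the Vip and Sst cluster held 2.97 (1.79 to 4.64).

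At least 1 precursor was detected in 19.7% of pelvic_1 neurons at the lowest and in 71.2% of sphenopalatine neurons at the highest, and at least 1 receptor in 48.5% of pelvic_1 to 74.5% of lumbar neurons. The receptor shares split by round, at 48.5% to 52.8% in round 1 and 65.2% to 74.5% in round 2, where neurons were deeper. Pdyn and its receptor Oprk1 were found together in 73 of 2724 stellate neurons, where 11.7% of neurons with Pdyn and 7.28% of those without it had a UMI of Oprk1, the former with a median depth of 31719.5 UMIs and the latter with 24995.5. In the lumbar chain 4 neurons had both, and Oprk1 was found in 1.07% of the 375 neurons with Pdyn against 3.60% of those without, although the former were deeper (median 92025 against 56621 UMIs). In the pelvic libraries 3 neurons each had both. Oprk1 was found in 21.4% of the 14 pelvic_1 neurons with Pdyn, against 1.02% of those without (median depth 42870 against 39318 UMIs). In pelvic_2 it was found in 33.3% of the 9 neurons with Pdyn, against 3.09% of those without (138979 against 106417 UMIs). Most pelvic UMIs of both genes lay in the noradrenergic cluster. Pnoc and Oprl1 were found together in 0.315% of sphenopalatine to 5.06% of coeliac neurons, and Penk and Oprd1 in at most 1.37% (5 neurons of pelvic_2).

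Whether neurons as a class carry these genes was tested on counts summed per library, against the glial cells of the same library (edgeR's quasi-likelihood test with library as a block, Benjamini-Hochberg adjustment over 13825 genes). Neurons differed in 74.5% of these genes, being higher in 5192 (37.6%) and lower in 5111 (37.0%). The 2 opioid genes that passed the filter on low counts, Penk and Oprl1, were both higher. Penk was higher by 3.34 on the log2 scale (SE 0.33, adjusted p = 2.48e-05) and in all 6 libraries, with the sphenopalatine at 335 against 33.2 CPM and the lumbar chain at 0.498 CPM against 0 UMIs in glial cells. Oprl1 was higher by 3.73 (SE 0.28, adjusted p = 6.44e-06), from 12.3 against 0.427 CPM in pelvic_2 to 27.0 against 4.33 in the stellate. Without the filter the other 5 were higher as well, with log2 differences of 3.51 for Pdyn, 4.05 for Pnoc, 3.78 for Oprm1, 3.71 for Oprk1 and 5.68 for Oprd1, and adjusted p-values from 1.76e-05 for Pnoc to 0.0332 for Oprd1. In that fit, of 24632 genes tested, 6376 were higher and 5810 lower in neurons. Oprd1 had no UMI in glial cells, so the size of its difference is not measured. Its summed neuronal level was at least 3.03 times the glial one, taking 3 counts as the glial limit. Of its 56 neuronal UMIs, 46 were from pelvic neurons.

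Penk was also a gene of fibroblast-like cells. These 2762 cells, named from 6 fibroblast markers that summed to 36436 to 62712 CPM in them and to 65.0 to 253 CPM in neurons, held 27.3 CPM of Penk in the stellate, 54.2 in the sphenopalatine, 236 in pelvic_1, 53.1 in the coeliac, 20.5 in the lumbar chain and 160.0 in pelvic_2. The 4 neuronal markers summed to 152 to 1474 CPM in these cells, highest in the stellate, and to 11002 to 16173 CPM in neurons. Penk was above 20 CPM in every library, and both pelvic libraries were above all others. The cells with most Penk were a cluster led by Mfap4, Clec3b and Dpt (411 cells, 290 of them from pelvic_1, 552 CPM) and one led by Fmo2, Tcf21 and Clec3b (471 cells, 304 of them from pelvic_2, 175 CPM). The other 6 genes stood at no more than 2.53 CPM in fibroblast-like cells of any library, with no UMI of Oprm1 or Oprk1.

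Against glial cells, fibroblast-like cells differed in 62.0% of 12865 genes, being higher in 3928 (30.5%) and lower in 4053 (31.5%). Penk was higher by 5.13 on the log2 scale (SE 0.92, adjusted p = 1.02e-03), with the lowest ratio in the sphenopalatine (54.2 against 33.2 CPM). Oprl1 was at -0.80 (SE 0.33, adjusted p = 0.0646) and passed no threshold. Against neurons, fibroblast-like cells differed in 74.9% of 14080 genes, being higher in 4798 (34.1%) and lower in 5753 (40.9%). Here Penk was higher by 3.59 (SE 1.04, adjusted p = 0.0134), and higher in 5 of 6 libraries. The sphenopalatine was the exception, with 54.2 CPM in fibroblast-like cells and 335 in neurons. Without the sphenopalatine the difference was 4.26 (adjusted p = 3.19e-05), and in round 1 alone, of which the sphenopalatine is 1 of 3 libraries, it was 2.13 with an adjusted p of 0.321. Oprl1 was lower in fibroblast-like cells by 4.70 (SE 0.34, adjusted p = 6.90e-06) and lower in all 6 libraries.

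**Figure D3:**
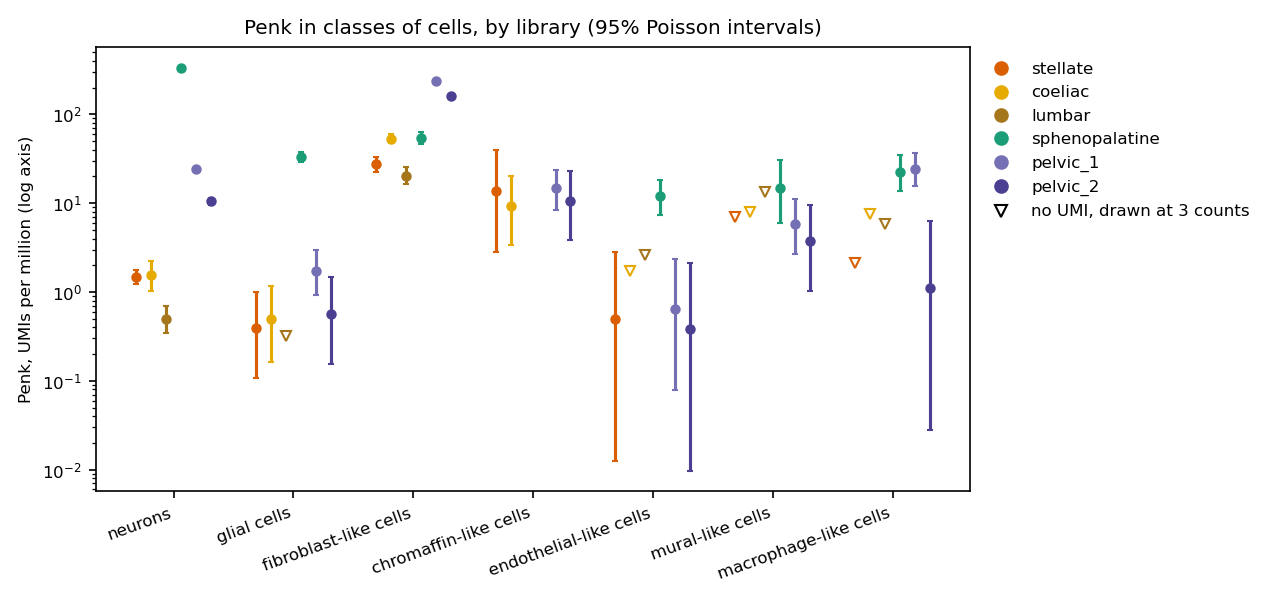
Penk (CPM, log axis) in each class of cells and library, with 95% Poisson intervals, and open triangles at the level of 3 counts where no UMI was found. Neurons span 0.498 to 335 CPM, fibroblast-like cells 20.5 to 236 CPM, and glial cells 33.2 CPM in the sphenopalatine and at most 1.72 CPM elsewhere.

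In the sphenopalatine, Penk stood at 12.0 CPM in endothelial-like, 14.8 in mural-like and 22.4 in macrophage-like cells, all below its 33.2 CPM in glial cells. In pelvic_1 macrophage-like cells held 24.5 CPM (116 cells, 15.5 to 36.8) against 1.72 in glial cells, but 14 of their 23 UMIs were those of a single cell. The chromaffin-like cells, which make catecholamines as adrenal medullary cells do, held Penk at 9.23 to 14.7 CPM in the 4 libraries with at least 20 such cells. They held Pnoc at 45.6 CPM in the stellate (36 cells, 10 UMIs, 21.9 to 83.9) and 16.9 in the coeliac (33 cells, 11 UMIs, 8.44 to 30.3), against 0 UMIs in the 157 and 33 cells of pelvic_1 and pelvic_2, which allows up to 2.75 and 5.27 CPM. Pdyn, Oprm1 and Oprk1 had no UMI in these cells in those 4 libraries.

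The pelvic ganglion holds noradrenergic and cholinergic neurons side by side, so the opioid genes were compared between them within both pelvic libraries. A neuron was called noradrenergic where Th, Dbh and Slc6a2 together had more UMIs than Chat, Slc18a3 and Slc5a7, which gave 141 and 35 noradrenergic and 752 and 328 cholinergic neurons in pelvic_1 and pelvic_2. Of 14153 genes tested 20.3% passed the threshold, 1301 (9.19%) being higher and 1569 (11.1%) lower in noradrenergic neurons, and of the 7 opioid genes 3 were higher and 2 lower. Pdyn, Oprk1 and Oprd1 passed the filter on low counts through the noradrenergic sums alone, and Pnoc through the cholinergic sums alone. Such entry favours a call, so no conclusion is drawn from the count of opioid genes called. With 2 libraries a gene has 1 residual degree of freedom, and edgeR took the spread as common to all genes. The adjusted p of each opioid gene that passed is therefore given with that of DESeq2 and of the fit without the library block.

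Penk and Pnoc were lower in noradrenergic neurons. Penk stood at 2.33 CPM in noradrenergic and 27.9 in cholinergic neurons of pelvic_1, and at 0.517 and 11.7 in pelvic_2, a log2 difference of -3.75 (SE 0.31, adjusted p = 2.19e-31 with edgeR, 1.46e-10 with DESeq2 and 0.0426 without the block). Pnoc stood at 0.538 and 2.48 CPM in pelvic_1 and at 0 and 5.75 in pelvic_2, with 3 UMIs in noradrenergic against 267 in cholinergic neurons (a cholinergic level 13.1 times the noradrenergic, exact interval 4.44 to 63.9), a difference of -3.58 (SE 0.60, adjusted p = 3.57e-08 with edgeR, 0.0216 with DESeq2). This call was lost without the library block (adjusted p = 0.105). The cholinergic clusters differed among themselves, and not all lay above the noradrenergic one. Over both pelvic libraries Penk stood at 76.9 CPM in the Gng8 cluster, but at 1.28 in the cholinergic cluster led by Grp and Nccrp1 (336 neurons) and 1.61 in the one led by Calca and Aldh1a2 (90 neurons), against 1.34 in the noradrenergic cluster. Pnoc stood at 15.0 CPM in the Fst and Pyy cluster and at 2.96 to 5.88 in 4 others, but at 0.107 and 0.178 in the Grp and the Calca clusters, against 0.223 in the noradrenergic one. Of those 4, the highest was led by Col1a1, Dcn and Col1a2 (34 neurons, 7 UMIs of Pnoc). Another was led by Hbb-bs, Hba-a1 and Apoe (140 neurons), and the part of mixed droplets in both was not tested.

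Pdyn and the kappa and delta receptors were higher in noradrenergic neurons. Pdyn stood at 4.48 CPM in noradrenergic and 0 in cholinergic neurons of pelvic_1, and at 2.33 and 0.0908 in pelvic_2, from 34 against 3 UMIs (77.0 times, exact interval 24.2 to 392), a log2 difference of 5.98 (SE 0.69, adjusted p = 1.26e-16 with edgeR, 1.05e-05 with DESeq2 and 0.0262 without the block). Oprk1 stood at 1.97 and 0.225 CPM in pelvic_1 and at 5.43 and 0.212 in pelvic_2, a difference of 3.94 (SE 0.54, adjusted p = 1.09e-11, 2.62e-04 and 0.0301 in the same order). Oprd1 stood at 1.25 and 0.257 CPM in pelvic_1 and at 5.43 and 0.303 in pelvic_2, a difference of 3.39 (SE 0.54, adjusted p = 9.38e-09 with edgeR, 5.65e-03 with DESeq2), and this call too was lost without the block (adjusted p = 0.0718). For each of these 3 genes the noradrenergic level was above the cholinergic one in both libraries.

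Oprm1 and Oprl1 did not pass the threshold. Oprm1 stood at 0.359 and 0.257 CPM in pelvic_1 and at 2.07 and 0.635 in pelvic_2 (log2 difference 1.30, SE 0.68, edgeR adjusted p = 0.192). Oprl1 stood at 22.6 and 16.4 CPM in pelvic_1 and at 17.1 and 11.7 in pelvic_2 (0.48, SE 0.19, edgeR adjusted p = 0.0503), higher in noradrenergic neurons of both libraries and just outside the threshold.

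**Figure D4:**
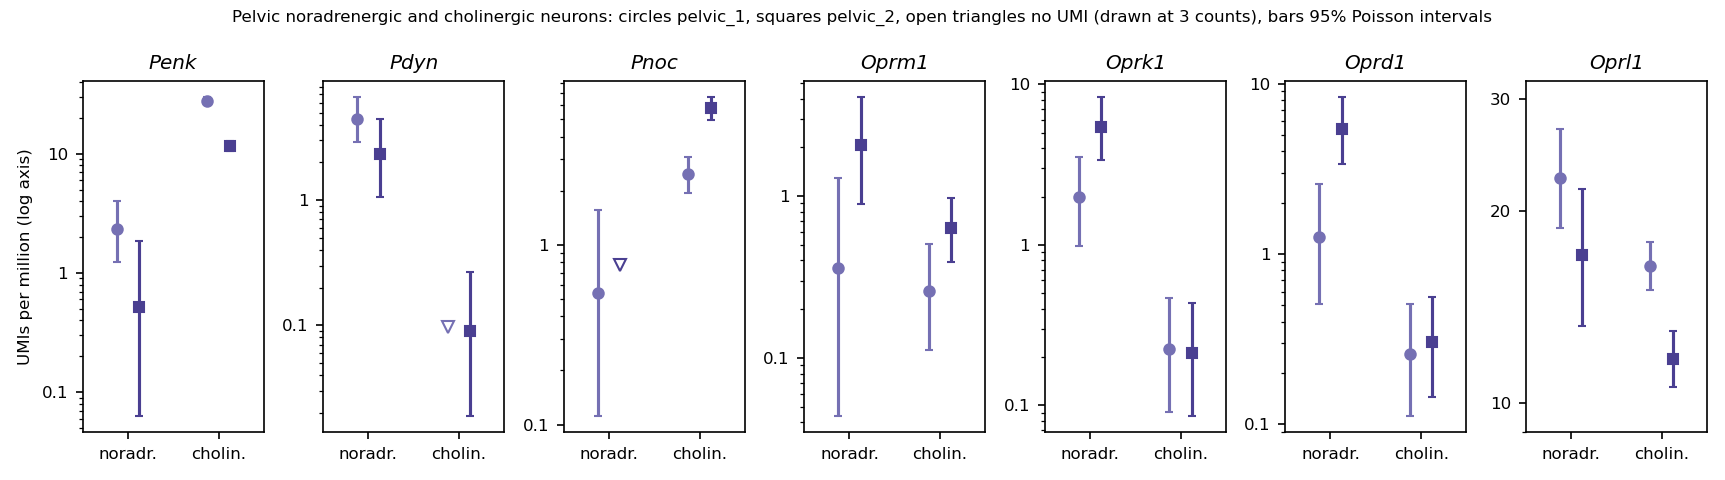
Opioid genes in noradrenergic and cholinergic neurons of the 2 pelvic libraries (CPM, log axis, 95% Poisson intervals, circles for pelvic_1, squares for pelvic_2, and open triangles at 3 counts where no UMI was found). Penk and Pnoc lie higher in cholinergic neurons, Pdyn, Oprk1 and Oprd1 in noradrenergic neurons, in each of the 2 libraries.

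The genes that process opioid peptides, degrade them or carry the receptors' signal were read from a list of 41 genes. In neurons against glial cells 37 were tested, of which 26 were higher and 5 lower by the same test, beside 37.6% higher and 37.0% lower among all genes, with a median log2 difference of 1.58 against 0.012 over all genes. The prohormone convertases Pcsk1 and Pcsk2, which cut the precursors, were higher in neurons by 3.57 and 4.19 on the log2 scale, Scg5, the chaperone of Pcsk2, by 3.79, and the carboxypeptidase Cpe, which trims the cut ends, by 2.33. Mme (neprilysin) and Ece1, peptidases of the cell surface that can degrade such peptides, were lower in neurons by 4.15 and 2.34. The other peptidases of the list that were called went both ways. Higher in neurons were Ece2 by 4.03, Dpp3 by 1.36, Lnpep by 0.84, Npepps by 0.55 and the cathepsin Ctsb by 0.87. The cathepsin Ctsl was lower in neurons by 0.89. Neurons of every library held all 4 processing genes, with Pcsk1 between 19.2 CPM in the sphenopalatine and 39.3 in the coeliac, and Pcsk2 between 18.6 in the sphenopalatine and 67.2 in the lumbar chain. The Penk-rich sphenopalatine was thus the lowest library for both convertases and the highest for Scg5 (897 CPM).

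Fibroblast-like cells, although high in Penk, were lower than neurons in Pcsk1 (by 4.10), Pcsk2 (by 4.64) and Scg5 (by 4.96), with levels of 2.24, 1.59 and 30.7 CPM, and higher in Cpe (by 0.80). The cathepsin Ctsl was also higher in fibroblast-like cells, by 0.79 (461 against 264 CPM), while Ctsb was not called (0.54). Fibroblast-like cells were higher than neurons in the peptidases Anpep (by 8.29), Mme (by 3.43) and Ece1 (by 0.49), and lower in Ece2 (by 3.23), Dpp3 (by 1.19) and Npepps (by 0.86). Over the list, 7 of the 37 genes tested were higher and 22 lower than in neurons (median -1.02 against -0.12 over all genes), beside 34.1% higher and 40.9% lower among all genes. Against glial cells 12 of 36 were higher and 8 lower (median 0.034 against -0.027), beside 30.5% and 31.5% among all genes.

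Within the pelvic ganglion 7 of 39 list genes were higher and 12 lower in noradrenergic neurons (median -0.14 against 0.0061 over all genes), beside 9.19% and 11.1% among all genes. These calls come from the edgeR fit with the library block, and no alternative fit was read for the list. Pcsk2 was higher by 3.00 (161 against 19.4 CPM), Pcsk1 by 0.98 and Mme by 4.55, the latter at 15.8 against 0.631 CPM. Rgs4, which speeds the shut-off of inhibitory G proteins, was higher by 1.93, whereas Rgs9 and Rgs17 were lower by 0.74 and 0.97. Kcnj9, a subunit of the potassium channels that these G proteins open, was higher by 2.40 (3.93 against 0.701 CPM). The subunit Kcnj3 was lower by 0.73 (15.4 against 25.3 CPM). In the same neurons Cpe fell by 0.54, and Arrb1, an arrestin that uncouples receptors, fell by 1.10. The adenylyl cyclases went both ways. Adcy8 fell by 1.90 (2.20 against 8.48 CPM) and Adcy5 by 0.54, whereas Adcy1 was higher by 1.17 (78.1 against 34.7 CPM). Kcnj6, another subunit of these channels, had no UMI in noradrenergic neurons, which allows up to 0.318 CPM, and stood at 2.71 CPM in cholinergic ones.

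Genes with the pattern most like that of each opioid gene were sought by Pearson's r of log2(CPM + 1), as a description, over 10 groups of neurons (the 4 other ganglia and, in each pelvic library, the 3 clusters that the markers named, which leave out the Gng8 cluster rich in Penk), among 9978 genes reaching 10 CPM in any group. For Penk they included Hmx2 and Dlx5, homeobox genes (r = 0.99 for each). For Pdyn they were Cldn11 (0.95), Nme1 (0.94) and Ooep (0.94), for Oprk1 Phb (0.93), for Oprd1 Tmem86a (0.96) and Gpr149 (0.94), and for Oprl1 Ctxn2 (0.93). Over 40 sums of a class of cells in a library, among 13653 genes, the nearest were Syt13 for Penk (0.83), Sox5os2 for Pdyn (0.92), Cbln2 for Pnoc (0.91) and Plcxd3 for Oprl1 (0.93). The points share libraries, depth and dissociation, and r over so few groups is set largely by those in which a gene is high.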

How the data were processed

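The 6 libraries of dissociated ganglia were sequenced in 2 rounds, and for each library the authors deposited UMI counts of genes by droplets that Cell Ranger 6.0.1 had called as cells (mm10 per the processing notes), without normalization. The members and gene lists were chosen with earlier results of these data known.

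A droplet was kept if it had more than 1500 but fewer than 11000 genes and a mitochondrial share below 15%. In R 4.3.3 with sctransform 0.4.2, neurons were cells with a mean neuronal marker value above 3 and a mean glial marker value below 1.15 (419 cells lay within 0.1 of the former, on either side), and 226 cells high in both were left out. Neurons of each ganglion and all other cells were clustered (Leiden, scanpy 1.11.5) without the 7 opioid genes, and clusters were named from at least 3 markers. The automatic Scrublet threshold marked 0.114% of pelvic_1, so the 5% of cells with the highest score were removed as an alternative. Marker genes, the list of 41 pathway genes, the most similar genes and the peptide and receptor pairs followed a written rule.

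Levels are CPM of summed counts with exact Poisson intervals, shares have exact Clopper-Pearson intervals and ratios exact conditional intervals, all at 95%, and 3 counts were taken as the limit of a count of 0. Tests were edgeR 4.0.16 (TMM, filterByExpr, quasi-likelihood, library as a block) on sums per library and class with at least 20 cells, with Benjamini-Hochberg adjustment over all genes and a threshold of 0.05, and were tested on simulated data. The library block pairs classes of the same cells' library and comes from the design. Alternatives were DESeq2 1.42.0, no filter, doublets removed, neurons selected on log counts, each round or library alone or left out, no block, clusters in place of the transmitter rule, weighting by neuron, thinning to 4000 UMIs and a minimum of 2 UMIs. Positions and coding sequences came from GENCODE M21 on GRCm38, by Ensembl identifier for 7 of 7 genes. A few items are not reported here.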

Additional observations from a re-analysis of the deposited data

Results flagged for a closer look

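The difference of Penk between fibroblast-like cells and neurons changed direction between ganglia, a contrast that was not itself tested. As a log2 ratio of CPM it was 4.21 in the stellate, 5.09 in the coeliac, 5.36 in the lumbar chain, 3.30 in pelvic_1 and 3.93 in pelvic_2, and -2.63 in the sphenopalatine.

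Opioid genes were also counted in cells that entered no comparison, at levels above those of glial cells. The 226 cells with both neuronal and glial markers, of which 81 came from the sphenopalatine, held 140.2 CPM of Penk, 2.10 of Pdyn, 1.95 of Pnoc, 0.901 of Oprm1 and 18.5 of Oprl1. An unnamed cluster led by Sult5a1, Igfbp6 and Crabp2 (425 cells, 352 of them from the sphenopalatine) held 73.7 CPM of Penk. An unnamed cluster led by the neuronal genes Snhg11, Syt4 and Elavl2 (361 cells) held 32.7 CPM of Penk, 5.65 of Pdyn, 2.55 of Oprk1 and 30.9 of Oprl1. An unnamed cluster of 23 cells led by Upk3b, Krt19 and C3, of which 20 came from pelvic_1, held 26.1 CPM of Pnoc, from 11 UMIs in 3 cells.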

How the results depend on the processing

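All tested differences of opioid genes kept their direction under every alternative that was run. Of the comparisons across all classes, the call of Penk in fibroblast-like cells over neurons was lost in round 1 alone (log2 difference 2.13, adjusted p = 0.321), and the number of genes lower in fibroblast-like than in glial cells fell to 2651 in round 1 alone. Between pelvic noradrenergic and cholinergic neurons, 683 genes were higher and 783 lower with DESeq2, and 231 and 287 without the library block, against 1301 and 1569. Without the block Oprd1 (3.45) and Pnoc (-3.71) lost their calls, with adjusted p-values of 0.0718 and 0.105. Oprl1 gained a call without doublets (0.52, adjusted p = 0.0322) and with clusters in place of the transmitter rule (0.53, adjusted p = 0.0218). The block changed no other call of an opioid gene.

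As a mean over neurons of each neuron's CPM, which weights shallow neurons as much as deep ones, Penk was 1.19 in the stellate and 331 in the sphenopalatine, Pdyn 14.3 in the stellate and 13.5 in the lumbar chain, Pnoc 5.13 in the stellate and 6.24 in the coeliac, Oprk1 4.27 in the stellate and 0.374 in the lumbar chain, and Oprl1 24.1 in the coeliac. Of 154 shares of neurons with a UMI under an alternative, 64 moved beyond their interval or, for the pelvic ganglion, beyond the SD of its libraries. Thinning and the minimum of 2 UMIs lower a share by design, so no conclusion is drawn from this count. Comparisons between classes of cells were paired by library through the block. Between ganglia, no paired analysis was possible because no ganglion other than the pelvic one has a second replicate number. Oprd1 outside the pelvic ganglion rests on 1 to 4 UMIs a library, and Pdyn and Oprk1 in the sphenopalatine on 2 and 1 UMIs, so their ratios have wide intervals.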

Other observations

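Some genes that carry the signal of opioid receptors differed between the neurons of the 5 ganglia. The 4 named here were chosen from the list of 41 after their values were seen, and with 1 library for most ganglia the differences have no test. Rgs4, which shortens signals of inhibitory G proteins, stood at 592 CPM in the stellate, 191 in the sphenopalatine and 54.3 in pelvic_1, and at 406 CPM in the lumbar chain, 290.3 in the coeliac and 33.1 in pelvic_2, so the pelvic ganglion was lowest in both rounds. Kcnj3, a subunit of the potassium channels these G proteins open, stood at 39.8 CPM in the sphenopalatine, 28.2 in pelvic_1 and 9.61 in the stellate, and at 19.5 CPM in pelvic_2, 9.01 in the lumbar chain and 3.78 in the coeliac. Adcy8, a cyclase that makes cyclic AMP, was at 0.381 CPM in the sphenopalatine and at 5.42 to 9.21 CPM in the other libraries. Arrb1 stood at 37.5 CPM in the sphenopalatine and 39.4 in pelvic_1, against 14.6 in the stellate, and at 26.6 CPM in pelvic_2 against 11.2 and 12.9 in the coeliac and lumbar libraries.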
